A study of Homo sapiens with 18 samples.

Results

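The 8 genes described here, EYA1, SIX2, PAX2, PAX8, WT1, LHX1, SALL1 and OSR1, are transcription regulators of the embryonic kidney. They were chosen by symbol from a table of ATAC-seq read counts for 54425 genes, and all 8 were found in it. The counts come from HEK293T cells, a human embryonic kidney line, carrying t(4;11) fusion constructs. Cells of 3 settings were sampled on day 3 and on day 28, with 3 libraries in each of the 6 groups and 18 libraries in all. AF4-MLL cells carried inducible AF4-MLL, MLL-AF4 cells carried inducible MLL-AF4, and co-expression cells carried constitutive MLL-AF4 together with inducible AF4-MLL. Every inducible construct was switched on with doxycycline (1 µg/ml) for 48 h, so all groups share this treatment, and it had ended well before day 28. No library of untreated or mock-transfected cells was analysed here. By the study's methods, AF4-MLL was transfected transiently into the co-expression cells and its plasmid was lost without selection after day 3, so their day 28 libraries may hold cells with MLL-AF4 alone. The labels call the cells of all settings stably transfected. Each setting was its own transfected cells, so the cell population and the construct cannot be told apart in any comparison between settings. The co-expression cells also started from a selected pool that already carried MLL-AF4.

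In the developing kidney, the homeobox factor SIX2 keeps nephron progenitors self-renewing, and EYA1, a phosphatase and transcriptional coactivator, works as the partner of factors of the SIX2 family. OSR1 acts early in the intermediate mesoderm, PAX2 and PAX8 specify the renal lineage, LHX1 patterns the early nephron, and SALL1 and WT1 act in the progenitors, WT1 later also in podocytes. EYA1 is also known as a target of MLL. The fusions come from MLL (KMT2A), a histone methyltransferase, and AF4 (AFF1), a part of the super elongation complex. MLL-AF4 keeps the CXXC domain with which MLL binds unmethylated CpG, whereas AF4-MLL keeps the catalytic SET domain.

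The libraries held between 442159 and 3539937 counts. Mitochondrial genes took 32.7 to 45.6% of the counts on day 3 and 63.6 to 68.5% on day 28, which left 297567 to 1116385 nuclear counts. One read was worth 0.470 to 1.45 CPM (a normalised read count, scaled with the TMM factors of edgeR), and at this depth the 8 genes had between 1 and 67 reads in a library. Of the 54425 genes 17660 passed a filter on low counts. Of the 8 members 7 did, and SALL1 did not. The filter counted mitochondrial reads in each library's total, so its bar was higher for nuclear genes on day 28. OSR1 passed it through day 3 libraries alone, although SALL1 had more reads over all libraries (118 against 115). The level of a gene is a read count over a stretch of unstated length, so levels are compared between groups for one gene and never between genes. Genes that mark other tissues had reads as well: the leukocyte gene PTPRC had group means of 7.92 to 18.6 CPM and the liver gene ALB 1.39 to 3.91 CPM. A count at a member is therefore no sign on its own that the gene was in use.

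The smallest p-values among the 7 tested members were those of EYA1 (ENSG00000104313). On day 3 as on day 28, its normalised count was lower in every co-expression library than in every AF4-MLL library. On day 3 the 3 AF4-MLL libraries had 26.9, 26.0 and 40.1 CPM, from 49, 18 and 52 reads, and the 3 co-expression libraries had 18.7, 23.9 and 18.4 CPM, from 28, 32 and 27 reads. MLL-AF4 cells had 34.6, 19.0 and 18.5 CPM on that day and overlapped both other groups. On day 28 the values were 27.4, 37.0 and 27.9 CPM in AF4-MLL cells, 27.2, 24.6 and 23.3 CPM in MLL-AF4 cells, while the co-expression libraries stood at 23.03, 15.6 and 17.3 CPM. The 3 settings were thus stacked without overlap on day 28, although both gaps were narrow. The lowest AF4-MLL library stood at 27.35 CPM beside 27.19 CPM in the highest MLL-AF4 library. The lowest MLL-AF4 library stood at 23.27 CPM beside 23.03 CPM in the highest co-expression library. One read was worth at least 0.470 CPM on that day, more than either gap.

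The group means of EYA1 were 31.0 ± 7.88 CPM in AF4-MLL cells, 24.0 ± 9.14 CPM in MLL-AF4 cells and 20.3 ± 3.07 CPM in co-expression cells on day 3 (SD, n = 3 each). On day 28 they were 30.8 ± 5.43, 25.0 ± 2.001 and 18.6 ± 3.91 CPM. The log2 difference between co-expression and AF4-MLL cells was -0.63 on day 3 (SE 0.22, 95% interval -1.05 to -0.20), with an unadjusted p = 0.00383 and a Benjamini-Hochberg adjusted p = 0.132 in edgeR's quasi-likelihood test. On day 28 it was -0.68 (SE 0.21, 95% interval -1.09 to -0.28), with an unadjusted p = 0.000947 and an adjusted p = 0.0536 in edgeR. Neither day passed the threshold of 0.05 over all 17660 genes. The day 3 value rested partly on AF4-MLL replicate 3, without which it was -0.39 (unadjusted p = 0.121, edgeR adjusted p = 0.619). On day 28 it was -0.52 without AF4-MLL replicate 2 (edgeR adjusted p = 0.396) and -0.54 without co-expression replicate 2 (edgeR adjusted p = 0.307). In ATAC-seq of bulk cells, fewer cells with an open site and less opening per cell cannot be told apart.

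Because both days pointed the same way, the mean of both days was also tested in the same fit, a contrast added after the values of each day had been seen. Over both days EYA1 fell by 0.655 on the log2 scale in co-expression cells relative to AF4-MLL cells (SE 0.15, 95% interval -0.95 to -0.36), with an edgeR adjusted p = 0.00121. In all 19 alternatives, each of the 12 libraries left out in turn among them, the difference lay between -0.78 and -0.53 with an adjusted p of 0.000762 to 0.0341, the DESeq2 Wald test giving 0.0301. In this contrast 5.56% of all genes tested were called, and EYA1 was the 1 member of 7. Against MLL-AF4 cells the mean difference of EYA1 was -0.32 (edgeR adjusted p = 0.342), in a contrast with 3.35% of genes and 0 members called. Between AF4-MLL and MLL-AF4 cells it was 0.34 (unadjusted p = 0.0280, edgeR adjusted p = 0.569), where 0.017% of genes and 0 members were called. At an unadjusted p under 0.05 there was 1 of 7 members (EYA1) between co-expression and AF4-MLL cells and 1 (EYA1) between the single fusions, beside 18.1% and 7.78% of all genes, and 0 against MLL-AF4 cells, beside 16.1%. Other genes of the lists were called for the mean of both days too, and their values stand with the lists.

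No difference between days was detectable for EYA1. Day 28 minus day 3 was -0.01 in AF4-MLL cells (95% interval -0.38 to 0.37), 0.04 in MLL-AF4 cells (-0.44 to 0.52) and -0.06 in co-expression cells (-0.52 to 0.39) on the log2 scale. The difference between co-expression and AF4-MLL cells on day 28 exceeded that on day 3 by -0.06 (95% interval -0.65 to 0.53, edgeR adjusted p = 0.997).

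EYA1 spans chr8:71197433-71548094 in GRCh38.p14, with 4 RefSeq genes that overlap it and could share its reads. The 10 tested genes on each side, which together cover 6.68 Mb, served as a local reference. Between co-expression and AF4-MLL cells on day 3 their median log2 difference was -0.16, and 19 of the 20 stood above EYA1. On day 28 the median was -0.06 and 18 of the 20 stood above it. For the mean of both days the median was -0.09 and all 20 stood above EYA1. One neighbour, C8orf34, was called for the mean of both days, at -0.59 (edgeR adjusted p = 0.0263). The median of the 514 tested genes placed on chromosome 8 was -0.07, -0.06 and -0.08 in the same 3 contrasts.

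The genes whose log2 CPM followed EYA1 most closely over the 18 libraries, out of 6104 tested genes that averaged 30 or more counts, were CRAT (Pearson r = 0.812), MED22 (r = 0.795) and AC087294.1 (r = 0.778). CRAT and MED22 both lie on chromosome 9. Among the members the closest to EYA1 was PAX8 (r = 0.623). The 21 pairs of tested members had r from -0.463 to 0.623 with a median of -0.015. These r describe 18 libraries that share groups and depth, and they rest on few reads for the members.

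SIX2 (ENSG00000170577, chr2:45005182-45009452), the factor that keeps nephron progenitors, passed the test in none of the contrasts. In co-expression cells it had 19.3, 12.7 and 15.03 CPM on day 3 and 12.7, 8.72 and 17.3 CPM on day 28. AF4-MLL cells had 12.1, 15.9 and 14.6 CPM on day 3 and 9.77, 13.3 and 11.2 CPM on day 28. MLL-AF4 cells had 13.4, 12.7 and 11.6 CPM, then 9.89, 12.3 and 8.06 CPM. Every pair of groups compared overlapped, and the differences ran from -0.38 to 0.33 on the log2 scale, with the smallest edgeR adjusted p at 0.692. All 9 intervals of SIX2 for the contrasts between settings and between days lay within 1 log2 unit of 0, so a doubling or halving was outside them. Between co-expression and AF4-MLL cells SIX2 stood at 0.20 on day 3 and 0.07 on day 28, beside -0.63 and -0.68 for its partner EYA1. The difference between the genes was not tested.

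PAX2 (ENSG00000075891, chr10:100735396-100829944), a paired-box factor of the renal lineage, had its smallest p-value over time in co-expression cells. Its values there were 14.0, 14.9 and 7.51 CPM on day 3 and 18.3, 16.2 and 18.6 CPM on day 28, without overlap. The log2 difference was 0.54 (SE 0.27, 95% interval 0.01 to 1.07) with an unadjusted p = 0.0441 and an edgeR adjusted p = 0.509, so it did not pass. Without co-expression day 3 replicate 3, the lowest library, it was 0.28. The difference was 0.16 in AF4-MLL cells, which had 17.5, 17.4 and 13.9 CPM on day 3 and 21.5, 18.8 and 14.0 CPM on day 28. It was 0.40 in MLL-AF4 cells, with 12.3, 11.4 and 20.8 CPM and then 16.5, 19.5 and 23.3 CPM. The 20 neighbours of PAX2 had a median of -0.10 over time in co-expression cells, and 19 of them stood below PAX2.

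PAX8 (ENSG00000125618, chr2:113215997-113278921), the paralogue that acts alongside PAX2, overlaps the antisense gene PAX8-AS1, and ATAC reads carry no strand that could divide them. Co-expression cells had 6.67, 9.70 and 7.51 CPM on day 3 and 12.2, 6.23 and 6.65 CPM on day 28. AF4-MLL cells had 10.4, 8.68 and 11.6 CPM, then 12.4, 8.29 and 11.9 CPM, and MLL-AF4 cells 13.4, 7.61 and 11.6 CPM, then 9.89, 10.04 and 10.7 CPM. The lowest means were those of co-expression cells, yet all groups compared overlapped. The log2 differences from AF4-MLL cells were -0.40 on day 3 and -0.24 on day 28, with edgeR adjusted p = 0.710 and 0.841. PAX8-AS1 was -0.24 and -0.06 in the same contrasts.

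WT1 (ENSG00000184937, chr11:32387775-32435539), a zinc finger factor of progenitors and podocytes, had its smallest p-value over time in AF4-MLL cells. The 3 libraries had 23.6, 31.8 and 16.95 CPM on day 3 and 17.6, 16.6 and 15.4 CPM on day 28, and the groups overlapped. The log2 difference was -0.47 (SE 0.24, 95% interval -0.93 to -0.003), with an unadjusted p = 0.0475 and an edgeR adjusted p = 0.527. WT1-AS, which overlaps WT1, was -0.46 (edgeR adjusted p = 0.728), and reads of this pair cannot be assigned to one or the other. The 20 neighbours had a median of 0.19. In MLL-AF4 cells WT1 had 20.1, 26.6 and 23.1 CPM on day 3 and 15.7, 22.3 and 15.2 CPM on day 28, a difference of -0.33. Co-expression cells had 18.7, 17.2 and 19.8 CPM and then 16.9, 22.4 and 17.3 CPM, a difference of 0.03. On day 3 all co-expression libraries lay below all MLL-AF4 libraries, at -0.32 with an edgeR adjusted p = 0.621. The gap was narrow, 19.81 against 20.08 CPM. One read was worth at least 0.667 CPM in these libraries, more than the gap. The change over time differed between co-expression and AF4-MLL cells by 0.50 (95% interval -0.16 to 1.15, edgeR adjusted p = 0.955).

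LHX1 (ENSG00000273706, chr17:36936785-36944612), a LIM-homeobox factor, had a higher mean on day 28 than on day 3 in each setting, with overlapping libraries throughout. AF4-MLL cells had 7.67, 14.5 and 10.8 CPM on day 3 and 14.3, 17.7 and 8.37 CPM on day 28. MLL-AF4 cells had 13.4, 15.2 and 8.09 CPM, then 15.7, 20.1 and 11.6 CPM, and co-expression cells 13.3, 11.9 and 10.3 CPM, then 16.5, 16.2 and 7.98 CPM. The log2 differences over time were 0.45, 0.43 and 0.32 in these settings, with edgeR adjusted p = 0.687, 0.555 and 0.766. The 20 neighbours of LHX1 had medians of 0.09, 0.55 and 0.05. In MLL-AF4 cells the neighbours thus had the higher median, and 12 of 20 stood above LHX1. The divergent transcript LHX1-DT, counted as a gene of its own, was called in none of the contrasts. Over time it stood at -0.96 in AF4-MLL cells (unadjusted p = 0.0464, edgeR adjusted p = 0.523), opposite to LHX1. In MLL-AF4 and co-expression cells it stood at 0.93 and 0.57. Between co-expression and AF4-MLL cells on day 28 it was 1.16 (unadjusted p = 0.0103, edgeR adjusted p = 0.199), beside 0.11 for LHX1.

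OSR1 (ENSG00000143867, chr2:19344874-19358623) and SALL1 (ENSG00000103449, chr16:51135982-51152334) had the fewest reads. OSR1, the early mesoderm factor, had 6.58, 2.89 and 4.62 CPM on day 3 and 0.651, 4.42 and 3.49 CPM on day 28 in AF4-MLL cells, the lowest value being a single read. MLL-AF4 cells had 6.70, 7.61 and 3.47 CPM, then 6.59, 4.46 and 2.69 CPM. The co-expression libraries had 4.00, 7.46 and 4.78 CPM on day 3 and 5.64, 5.603 and 3.99 CPM on day 28. Its largest difference was 0.85 between co-expression and AF4-MLL cells on day 28, with a 95% interval from -0.17 to 1.86 (edgeR adjusted p = 0.507). Only 2 of its 9 intervals lay within 1 log2 unit of 0, so most of its intervals still held a doubling or a halving. OSR1 passed the filter through day 3 libraries alone, and its differences over time carry that limit. SALL1, a zinc finger factor of the progenitors, had 2 to 15 reads in a library with a median of 6, and was not tested. Its group means ran from 3.86 ± 1.35 CPM in AF4-MLL cells on day 3 to 5.78 ± 2.24 CPM in AF4-MLL cells on day 28 (SD, n = 3 each), and every pair of the 6 groups overlapped.

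A RefSeq promoter entry was found for 4 members, SIX2, PAX2, PAX8 and WT1. The promoter table used here held no entry for EYA1, LHX1, SALL1 and OSR1. The 250 bases upstream of the outermost RefSeq start (GRCh38.p14) are shown because open chromatin in ATAC-seq often lies at promoters and because the MLL part of MLL-AF4 binds CpG. Capitals mark CG pairs, and each sequence runs 5′ to 3′ on the strand of the gene. They lie at chr2:45009453-45009702 (minus strand) for SIX2, chr10:100735146-100735395 (plus strand) for PAX2, chr2:113278922-113279171 (minus strand) for PAX8 and chr11:32435540-32435789 (minus strand) for WT1.
SIX2: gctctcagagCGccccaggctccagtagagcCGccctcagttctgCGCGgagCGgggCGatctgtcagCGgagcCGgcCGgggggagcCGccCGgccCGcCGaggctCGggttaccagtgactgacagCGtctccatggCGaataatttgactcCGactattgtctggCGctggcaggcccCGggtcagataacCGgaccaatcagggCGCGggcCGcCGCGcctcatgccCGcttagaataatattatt
PAX2: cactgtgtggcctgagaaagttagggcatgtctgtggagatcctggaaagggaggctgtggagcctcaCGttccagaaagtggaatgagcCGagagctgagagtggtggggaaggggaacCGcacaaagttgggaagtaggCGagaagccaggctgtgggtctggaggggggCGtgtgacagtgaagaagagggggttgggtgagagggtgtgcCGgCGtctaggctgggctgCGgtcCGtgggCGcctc
PAX8: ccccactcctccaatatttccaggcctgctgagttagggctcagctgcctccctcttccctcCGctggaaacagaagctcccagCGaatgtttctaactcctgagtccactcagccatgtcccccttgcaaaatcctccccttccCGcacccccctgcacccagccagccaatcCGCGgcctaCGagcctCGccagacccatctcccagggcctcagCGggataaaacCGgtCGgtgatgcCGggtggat
WT1: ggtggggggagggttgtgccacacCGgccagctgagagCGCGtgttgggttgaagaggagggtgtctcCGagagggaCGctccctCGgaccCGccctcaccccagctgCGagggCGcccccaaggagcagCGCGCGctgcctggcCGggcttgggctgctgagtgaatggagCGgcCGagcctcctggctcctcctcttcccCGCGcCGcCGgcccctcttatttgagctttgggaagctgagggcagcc
SIX2 had 26 CG pairs and WT1 19, against 11 in PAX8 and 10 in PAX2. The median of 35116 RefSeq promoter windows of this length was 11, and 19.58% of them had at least as many as SIX2. The GC box GGGCGG, searched on both strands, was found in SIX2 and WT1 and in 42.64% of all windows. CCAAT, also on both strands, was found in SIX2 and PAX8 and in 32.01% of all windows.

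Taking the 7 tested members through the contrasts between settings, 0 were called in each by edgeR with Benjamini-Hochberg adjustment. Between co-expression and AF4-MLL cells 1.28% of all genes tested were called on day 3 and 1.69% on day 28. At an unadjusted p under 0.05 the members had 1 (EYA1) on each day, beside 12.3% and 12.7% of all genes. The groups did not overlap for 1 member (EYA1) on each day, beside 16.5% and 16.8% of all genes. When co-expression was set against MLL-AF4 cells, 1.81% of genes were called on day 3 and 1.17% on day 28, and 0 members had an unadjusted p under 0.05, beside 14.5% and 11.8%. There the groups of WT1 on day 3 and of EYA1 on day 28 did not overlap, beside 19.0% and 16.0% of genes. Between AF4-MLL and MLL-AF4 cells 0.142% of genes were called on day 3 and 0.0793% on day 28, and 0 members had an unadjusted p under 0.05, beside 9.55% and 8.26%. Non-overlap was seen for 0 members on day 3 and for EYA1 on day 28 (log2 difference 0.32), beside 14.0% and 13.4% of genes. A share of 1 in 7 members is close to these backgrounds.

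Over time, 0 members were called in AF4-MLL, MLL-AF4 or co-expression cells, where 0.606%, 2.87% and 0.606% of all genes were called by edgeR. At an unadjusted p under 0.05 there were 1 (WT1), 0 and 1 (PAX2), beside 9.29%, 15.8% and 9.51% of genes. PAX2 in co-expression cells was the one member whose days did not overlap, beside 14.0%, 20.4% and 14.2% of genes. For the difference in change over time, 0 members were called and 0 had an unadjusted p under 0.05 in each of the 3 contrasts. The share of all genes called was 0.232% for co-expression against MLL-AF4, 0.0% for co-expression against AF4-MLL and 0.317% for AF4-MLL against MLL-AF4, with 9.73%, 5.05% and 9.75% at an unadjusted p under 0.05. In the contrast with 0 calls over all genes, edgeR gave 892 genes at an unadjusted p under 0.05, and DESeq2 called 0 with 309 at an unadjusted p under 0.05. Over the 84 pairs of member and contrast edgeR called 0 with 4 at an unadjusted p under 0.05, and DESeq2 called 0 with 2, while its adjusted p was not given for 48 pairs.

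**Figure D1:**
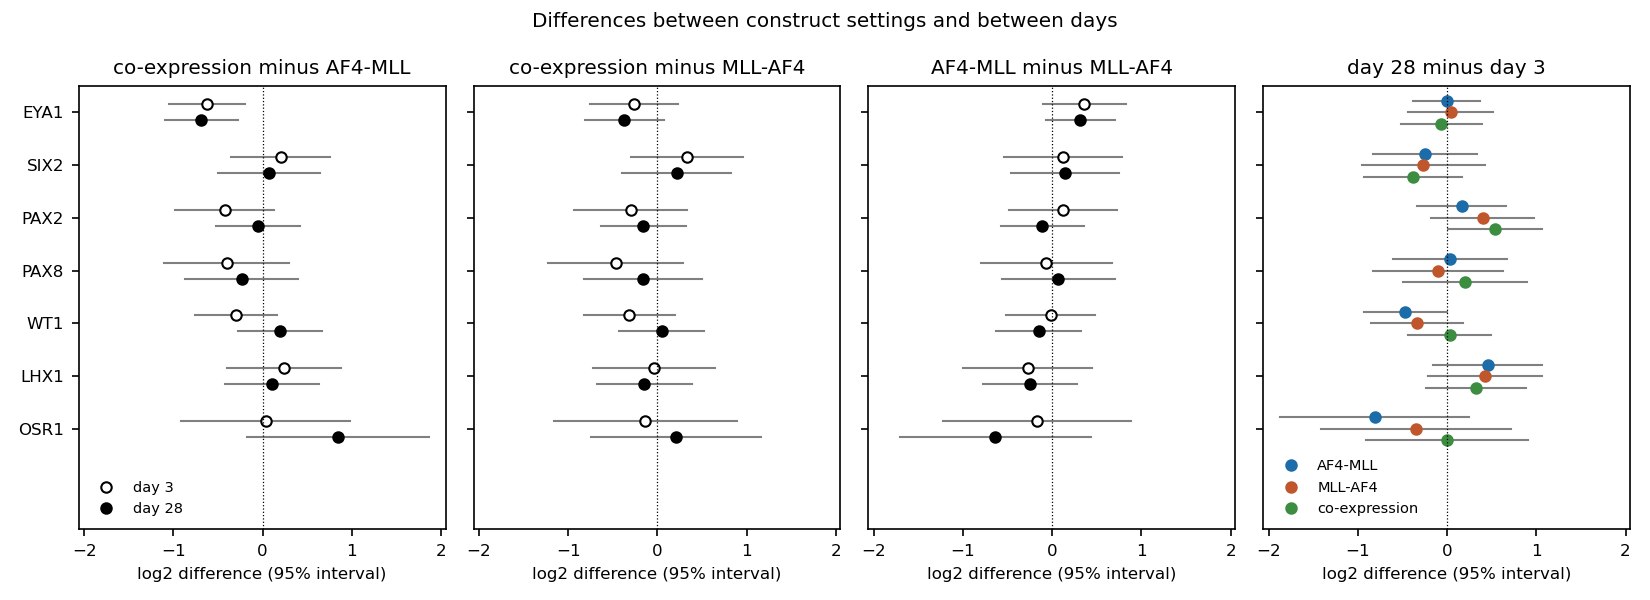
Log2 differences of the 7 tested members with their 95% intervals, between settings on day 3 (open) and day 28 (filled) in the left 3 panels and between days in the right panel (colour gives the setting). The intervals of EYA1 between co-expression and AF4-MLL cells end below 0 on both days, whereas those of OSR1 are the widest.

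The precision of these counts sets what could be seen. Of the 63 intervals for contrasts between settings and between days, 49 lay within 1 log2 unit of 0. The median half-width was 0.44 for EYA1, 0.47 for WT1, 0.53 for PAX2, 0.60 for SIX2, 0.61 for LHX1, 0.69 for PAX8 and 1.02 for OSR1. When the 6 group means of each member were put in order, 40 neighbouring pairs resulted. In 1 of them the libraries did not overlap, MLL-AF4 and AF4-MLL cells on day 28 for EYA1. That gap, 27.19 against 27.35 CPM, was smaller than 1 read. These 2 groups did not overlap for 13.4% of all genes tested. For the count over neighbouring pairs no share over all genes was computed. From the lowest to the highest group mean EYA1 spanned 1.66-fold, SIX2 1.56-fold, PAX2 1.63-fold, PAX8 1.36-fold, WT1 1.46-fold, LHX1 1.44-fold, SALL1 1.499-fold and OSR1 2.08-fold.

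Other genes were taken from fixed lists of paralogues, further kidney genes, markers of other tissues and reference genes. The paralogues were listed as relatives of the members and not for a role in the kidney. Of 26 paralogues of the members 22 were tested. On day 3 co-expression against MLL-AF4 gave 2 calls, and on day 28 co-expression against AF4-MLL also gave 2, where 1.81% and 1.69% of all genes were called. There was 1 call in co-expression against AF4-MLL on day 3 (1.28% of all genes) and 1 over time in MLL-AF4 cells (2.87%). LHX6, a LIM-homeobox paralogue of LHX1, fell in co-expression cells relative to AF4-MLL cells on day 3 (log2 difference -0.67, edgeR adjusted p = 0.0335) and on day 28 (-0.62, edgeR adjusted p = 0.0498), and relative to MLL-AF4 cells on day 3 (-0.69, edgeR adjusted p = 0.0446). Its means were 27.6 ± 0.955 CPM in co-expression cells and 40.6 ± 13.4 CPM in AF4-MLL cells on day 3 (SD, n = 3 each). LHX9 fell relative to MLL-AF4 cells on day 3 (-0.75, edgeR adjusted p = 0.0254). The eye regulator PAX6 fell over time in MLL-AF4 cells (-0.52, edgeR adjusted p = 0.00800), and PAX9 rose in co-expression relative to AF4-MLL cells on day 28 (0.64, edgeR adjusted p = 0.0299).

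Of 24 other transcription regulators of the kidney 21 were tested. Between co-expression and AF4-MLL cells on day 3, HNF4A, a factor of the proximal tubule, fell from 10.4 ± 2.38 to 3.04 ± 0.878 CPM (log2 difference -1.76, edgeR adjusted p = 0.0147), and FOXC2, a podocyte factor, rose from 3.56 ± 1.69 to 12.2 ± 3.21 CPM (1.60, edgeR adjusted p = 0.0180), with n = 3 each. HNF4A had 3 to 5 reads in the co-expression libraries and FOXC2 2 to 10 in the AF4-MLL libraries. These were 2 of 21 beside 1.28% of all genes, and none of this list was called in another of the 12 contrasts. Of 16 markers of differentiated nephron cells 11 were tested, and PODXL, a podocyte surface protein, fell in co-expression relative to AF4-MLL cells on day 3 (-0.85, edgeR adjusted p = 0.0377). Of the 19 ligands and receptors of kidney development, such as GDNF, RET and WNT4, 18 were tested and 0 were called in each contrast by edgeR, with 1 to 3 at an unadjusted p under 0.05, beside 5.05 to 15.8% of all genes at that threshold, and DESeq2 called 0 of them as well. Over all the lists DESeq2 called PAX6 and ACTB in the 12 contrasts. The medians of the lists between co-expression and AF4-MLL cells on day 3 were -0.30 for the members, 0.02 for the paralogues, -0.01 for the other regulators, -0.11 for the ligands and receptors and -0.23 for the nephron markers, beside 0.01 over all genes tested. On day 28 they were 0.07, 0.07, 0.002, -0.16 and -0.17 in the same order, beside 0.01 over all genes tested. The members' median thus did not keep its sign between the days.

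Markers of other tissues and genes in use in every cell stood as follows. Of 8 blood markers 4 were tested, and the summed level of all 8 was 59.3 to 84.8 CPM over the libraries. PTPRC, the leukocyte phosphatase CD45, fell in co-expression relative to AF4-MLL cells on day 28 (-1.22, edgeR adjusted p = 0.00627). The markers CD3E, CD79A, CD14 and HBB had 0 reads in some libraries. Of 6 liver markers 2 were tested, and the sum over all 6 was 30.7 to 52.0 CPM. EdgeR called 0 of the 2 tested, with 0 or 1 per contrast at an unadjusted p under 0.05, and DESeq2 called 0. Of the 10 genes used as a reference for open chromatin, B2M rose in co-expression relative to AF4-MLL cells on day 3 (1.04, edgeR adjusted p = 0.0106) and on day 28 (0.98, edgeR adjusted p = 0.00548) and relative to MLL-AF4 cells on day 28 (1.12, edgeR adjusted p = 0.00229). ACTB rose relative to MLL-AF4 cells on day 3 (0.64, edgeR adjusted p = 0.0157), and its change over time differed between these settings by -0.97 (edgeR adjusted p = 0.0173). The summed level of the list on day 3 was 406 to 447 CPM in co-expression, 329.8 to 383 CPM in AF4-MLL and 358 to 399 CPM in MLL-AF4 cells. On day 28 it was 364 to 407, 319 to 346 and 359 to 379 CPM, so co-expression and MLL-AF4 cells overlapped there. The list's median log2 difference between co-expression and AF4-MLL cells was 0.26 on day 3 and 0.13 on day 28, with 1 of 10 called on each day. Against MLL-AF4 cells it was 0.19 and -0.03. The part of this list in the EYA1 difference was not tested.

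For the mean of both days, the contrast added after the values were seen, 6 genes of these lists were called for co-expression against AF4-MLL cells, beside 5.56% of all genes. LHX6 fell (log2 difference -0.65, edgeR adjusted p = 0.000172), as did HNF4A (-1.05, edgeR adjusted p = 0.0122) and LHX9 (-0.47, edgeR adjusted p = 0.0125). B2M rose (1.01, edgeR adjusted p = 2.88e-06), as did FOXC2 (0.98, edgeR adjusted p = 0.0165). PODXL, outside the 5 with the smallest adjusted p, also fell (-0.50, edgeR adjusted p = 0.0373). Against MLL-AF4 cells, where 3.35% of all genes were called, HNF4A (-1.12, edgeR adjusted p = 0.0180), LHX6 (-0.49, edgeR adjusted p = 0.0269) and LHX9 (-0.47, edgeR adjusted p = 0.0334) fell and B2M rose (0.99, edgeR adjusted p = 3.96e-05). Over the 3 contrasts of this mean, DESeq2 called LHX6 in 1 and B2M in 2. It called 0 of the other kidney regulators and 0 of the nephron markers, so HNF4A, FOXC2 and PODXL rested on edgeR, as did LHX9.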

How the data were processed

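The authors deposited 1 table of raw counts of ATAC-seq reads per gene, whole numbers for 54425 genes in 18 libraries. Reads came from Nextera transposase on fresh nuclei. The submitters' processing notes name bcl2fastq, Bowtie2, HTSeq and build GRCh38. The region counted per gene, the treatment of duplicates and any correction for the transposase offset are not given in the sources used here, so counts can include reads away from promoters and reads of overlapping genes. Over 13550 tested protein-coding genes, the mean count and the gene span had a Spearman correlation of 0.032. This value does not tell which region was counted for a given gene. Of the gene entries, 116 merge several identifiers.

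Counts were fitted in R 4.3.3 with edgeR 4.0.16: TMM normalisation, filterByExpr (minimum count 10, minimum total 15), 6 groups without covariates and quasi-likelihood F tests. Genes with a Benjamini-Hochberg adjusted p under 0.05 over 17660 genes were called. The biological coefficient of variation was 7.48%. The 12 contrasts were the 3 pairs of settings on each day, day 28 against day 3 in each setting and the 3 differences of change over time. The 95% intervals are the fitted log2 difference and its SE. DESeq2 1.42.0 was an alternative. The replicates are labelled as biological ones, so p-values measure the spread between them. No pairing of libraries by replicate number was seen: r of deviations was -0.091 to 0.037 over 45 pairs of equal number. Most of these pairs joined different settings, and many genes had few reads. The r therefore cannot tell whether a replicate was followed from day 3 to day 28. Positions, gene order and promoters come from RefSeq GRCh38.p14 by symbol. They placed 14914 of the tested genes (84.45%).

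The members and lists were chosen with earlier results of these data known. All 8 members are named in every group. Of the other lists, genes called in a contrast are named, at most 5 per contrast by smallest adjusted p. Genes like EYA1 are the 3 with the highest r.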

Additional observations from a re-analysis of the deposited data

How the results depend on the processing

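The number of members called remained 0 under each alternative in 10 of the 12 contrasts. Between co-expression and AF4-MLL cells on day 3 it was 1 for the mean of both days. On day 28 it was 1 of 6 tested with mitochondrial genes left out (EYA1, log2 difference -0.69, edgeR adjusted p = 0.0497). It was 1 of 6 with only the groups compared in the fit (EYA1, -0.69, edgeR adjusted p = 0.0422) and 1 of 7 for the mean of both days. Over all genes, the first fit called 302 and the second 326, beside 299 in the main fit. For the mean of both days 5.56% of all genes were called. Over the leave-one-out fits, the count of members called was 0 in every contrast. Without one library the EYA1 difference lay between -0.79 and -0.39 (day 3) or between -0.94 and -0.52 (day 28). With a replicate block it was -0.62 (edgeR adjusted p = 0.148) and -0.69 (0.0586), and the number of members called stayed at 0. The DESeq2 Wald test gave -0.63 (adjusted p = 0.487) and -0.70 (0.411). Without one library, the change of WT1 in AF4-MLL cells ranged from -0.65 to -0.33, and that of PAX2 in co-expression cells from 0.28 to 0.70.

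Scaling by the nuclear total moved the median of all genes over time by -0.22 in AF4-MLL, -0.17 in MLL-AF4 and -0.22 in co-expression cells. It turned the sign of 8 of 72 member differences, none over 0.20 in size, and gave WT1 -0.69 in AF4-MLL cells (edgeR adjusted p = 0.0723). It gave PAX2 0.32 in co-expression cells, where the unadjusted p of 0.0441 became 0.237. Both moved by about the shift of all genes. Testing all genes without a filter turned 7 of 84 signs, none over 0.07 in size, moved the median over time in MLL-AF4 cells to 0.14, and let SALL1 be tested, with an adjusted p of 0.828 or above in the 12 contrasts. The cause of these shifts was not tested. OSR1 did not pass the filter where mitochondrial genes were left out, nor in most fits of only the groups compared. Depth limited OSR1, SALL1 and PAX8 most. The mean of both days was added after seeing the data.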
